A study of Mus musculus with 26 samples.

Results

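The genes described here encode the receptors of the adrenomedullin and calcitonin peptides and the peptide adrenomedullin itself. They are Calcrl (calcitonin receptor-like receptor), Calcr (calcitonin receptor), the receptor activity-modifying proteins Ramp1, Ramp2 and Ramp3, and Adm (adrenomedullin). The 6 genes were taken by symbol, and each matched 1 of the 41442 gene rows in each of 2 count tables. Ramp3 was chosen by its measured difference between female and male cells at E14.5 in an earlier examination of the same libraries, a contrast in which 6.28% of tested genes were called, 2.59% higher and 3.69% lower in females. The other 5 genes were added as its receptor and ligand family. Values of the E14.5 sex contrast are therefore given as a description without a test, as are other contrasts of Ramp3 that use E14.5 libraries.

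The libraries came from cells labelled with a red fluorescent protein, Rosa-Tomato, in the fetal mouse reproductive tract. In the Gli1-CreER line the label marks cells that expressed Gli1, a hedgehog target gene, when tamoxifen was given, together with their descendants. Per the labels, dams received 1 mg of tamoxifen at E12.5 and again at E13.5 (days of embryonic development), for the Gli1-CreER and the Amhr2-Cre embryos alike. Gli1+ cells were sorted from the mesonephros, the embryonic tissue that carries the Wolffian and Müllerian ducts. The fetal groups were E14.5 females, E14.5 males, E16.5 females and E16.5 males, with 3 RNA-seq libraries in each. Uterine cells of E19.5 females, called neonatal in the labels, gave 3 libraries of Gli1+ cells and 3 of cells labelled by Amhr2-Cre, which is driven by the gene of the anti-Müllerian hormone receptor. The labels name no pooling, litter or strain, so p-values measure only the spread between these libraries, which may be partly technical. A further 8 ATAC-seq samples of the fetal groups are represented by a single list of open-chromatin peaks.

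Calcrl is a receptor of the calcitonin family that reaches the cell surface and binds its peptides only together with a RAMP protein, and it acts mainly through cyclic AMP. With Ramp1 it forms the receptor of calcitonin gene-related peptide (CGRP), a peptide of sensory nerves that relaxes vessels and other smooth muscle. With Ramp2 or Ramp3 it forms receptors of adrenomedullin, a vasodilator peptide that is needed for blood and lymphatic vessel development. Calcr binds calcitonin by itself and amylin when paired with a RAMP.

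The sequences just upstream of the gene start are shown for the 4 members whose levels changed between fetal groups, because the start is where the deposited peak list bears on them. They were read from RefSeq promoter windows on GRCm38.p6, the assembly of mm10, which held 5 of the 6 members; Ramp2 had no entry. Only bases upstream of the annotated gene start are printed, 5′ to 3′ on the strand of the gene, and capitals mark bases inside a deposited open-chromatin peak. The Ramp3 sequence lies at chr11:6658283-6658520 on the plus strand, that of Calcrl at chr2:84425412-84425516 on the minus strand, that of Adm at chr7:110627407-110627656 on the plus strand and that of Ramp1 at chr1:91179572-91179821 on the plus strand.
Ramp3: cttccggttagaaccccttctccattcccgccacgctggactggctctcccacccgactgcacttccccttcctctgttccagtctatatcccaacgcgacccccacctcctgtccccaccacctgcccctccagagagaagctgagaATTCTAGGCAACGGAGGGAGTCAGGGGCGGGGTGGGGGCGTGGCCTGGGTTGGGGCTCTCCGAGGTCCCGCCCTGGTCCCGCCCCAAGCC
Calcrl: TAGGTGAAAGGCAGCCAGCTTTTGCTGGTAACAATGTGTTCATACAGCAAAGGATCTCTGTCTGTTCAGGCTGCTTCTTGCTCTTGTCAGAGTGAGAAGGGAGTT
Adm: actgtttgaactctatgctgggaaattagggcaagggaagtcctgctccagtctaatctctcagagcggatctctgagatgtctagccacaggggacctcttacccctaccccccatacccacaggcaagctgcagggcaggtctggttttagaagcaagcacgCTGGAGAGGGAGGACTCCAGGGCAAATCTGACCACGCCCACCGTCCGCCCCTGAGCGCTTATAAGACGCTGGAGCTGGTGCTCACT
Ramp1: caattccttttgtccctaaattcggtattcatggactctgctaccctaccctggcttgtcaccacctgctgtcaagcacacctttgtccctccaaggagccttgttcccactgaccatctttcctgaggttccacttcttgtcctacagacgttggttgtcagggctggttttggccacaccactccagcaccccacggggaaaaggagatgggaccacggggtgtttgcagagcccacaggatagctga

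The last 90 of the 238 printed bases of Ramp3 lay inside a peak, as did the last 86 of 250 for Adm and all 105 for Calcrl, whereas the Ramp1 sequence held no peak base. The 250 bases before the RefSeq start were searched on both strands for short motifs; for Calcrl and Ramp3 this window runs past the gene start of the count table, where the printed part ends. The GC box GGGCGG occurred 3 times for Ramp3, 1 time for Calcrl (past the printed part, inside the gene as the table places it), 1 time for Adm and not for Ramp1, and was present in 32.7% of 32851 promoter windows. In these 4 windows there was no match to the full oestrogen response element (in 0.0639% of all windows), AGGTCA (a nuclear receptor site, 14%), AGAACA (an androgen receptor site, 16.1%) or TGGGTGGTC (a Gli site, 0.225%). There was also none to TGACGTCA (the cyclic AMP response element, 1.55%), its core TGACG (17.8%), ACGTG (the core of the hypoxia response element, 16.6%) or TATAAA (12.4%). AGGTCA and the oestrogen response element can overlap, as can TGACG and TGACGTCA. A match describes letters only.

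Total counts ranged from 23382983 to 64602477 in the fetal and from 28709191 to 37541045 in the uterine libraries. Levels are given as CPM, the usual depth-scaled count, taken on TMM-scaled library totals within each table. The 10 listed mesenchyme markers, among them Pdgfra, Col1a1 and Gli1, were present in every group, with summed levels of 36700 to 68400 CPM in fetal libraries and 27200 to 64700 CPM in uterine ones. The 14 endothelial markers summed to 74.8 to 137 CPM in fetal libraries and 39.5 to 58.6 CPM in uterine ones. The endothelial sum was mostly Kdr and Emcn, and Pecam1 had group means of 0.698 to 1.38 CPM over all 6 groups. Globin and other erythroid markers summed to 7.52 to 982 CPM in E14.5 female libraries and to at most 55.8 CPM in the other fetal groups.

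Within each group the members were ordered by their mean level per length (RPKM, the CPM value per kilobase of exon). Single libraries could depart from that order. In E16.5 male replicate 3 Calcrl, at 12.2 RPKM, lay above Ramp3, at 8.48 RPKM. In E16.5 female replicate 1 Adm, at 4.35 RPKM, lay above Calcrl, at 3.87 RPKM. Ramp2 and Ramp3 were the most abundant in all 6 groups, Calcrl came next in the fetal groups, and Adm and Ramp1 followed. In E14.5 females the mean level per length was 26.9 ± 2.81 RPKM (SD, n = 3) for Ramp3 and 24.6 ± 1.3 RPKM for Ramp2, which did not differ beyond their spread. In E16.5 males it was 26.5 ± 1.32 RPKM for Ramp2 against 10.6 ± 1.86 RPKM for Ramp3 and 10.4 ± 2.07 RPKM for Calcrl, the last 2 within their spread of each other. In E16.5 females Calcrl and Adm were likewise close, at 3.69 ± 0.229 and 3.44 ± 1.11 RPKM. In the uterus Ramp3 led with 83.7 ± 10.1 RPKM in Amhr2+ and 83.0 ± 20.5 RPKM in Gli1+ cells, ahead of Ramp2 at 17.3 ± 2.19 and 16.3 ± 1.23 RPKM, while Ramp1 and Calcrl lay between 7.14 and 8.22 RPKM on average. Calcr was the lowest of the 6 in every group, at 0.0497 to 0.0963 RPKM in the fetal groups.

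**Figure D1:**
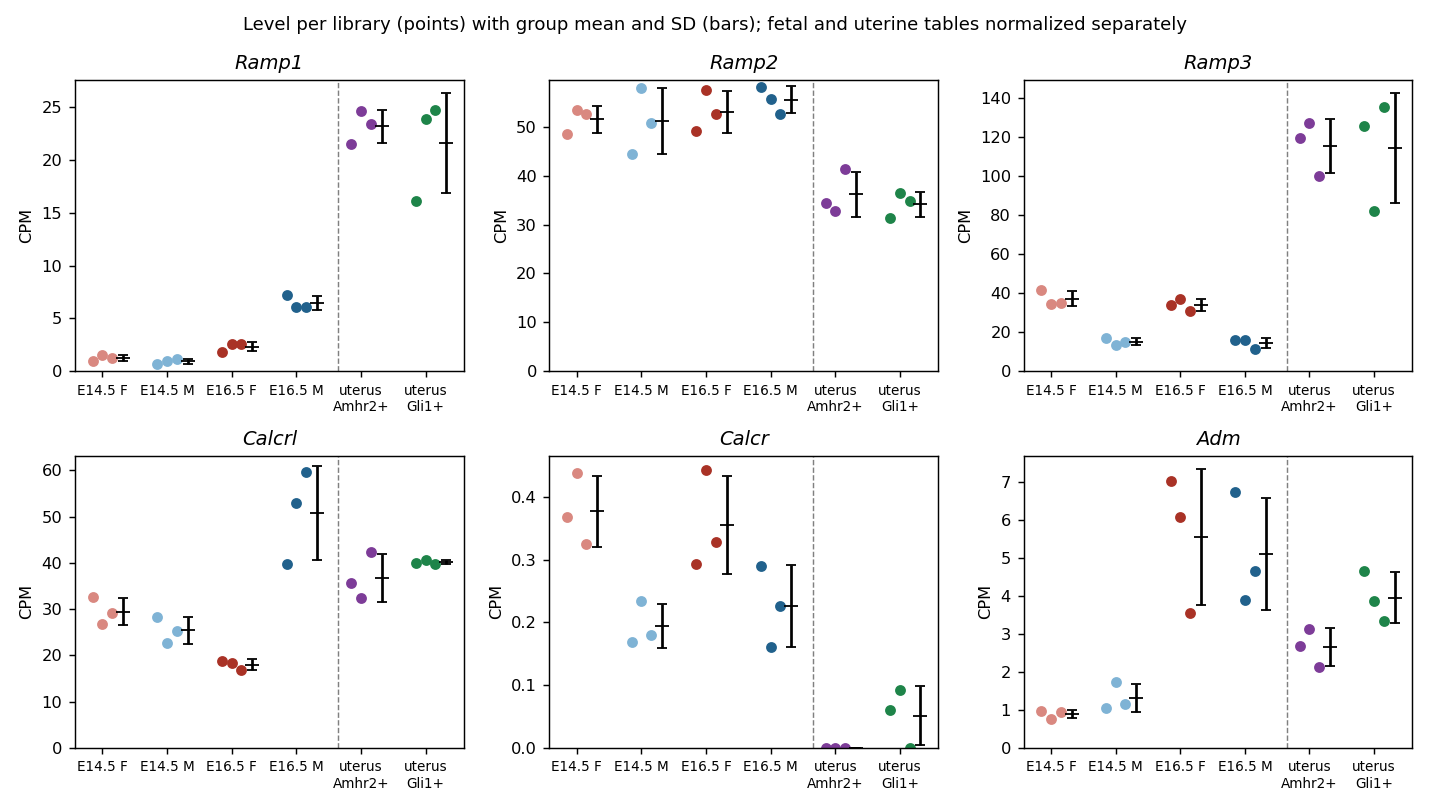
Levels of the 6 genes in CPM (linear axis from 0) in each of the 18 RNA-seq libraries (points, 3 per group) with the group mean and SD (bars); the dashed line parts the fetal from the uterine table. Ramp3 lies between 31.1 and 41.6 CPM in all 6 fetal female libraries and between 11.7 and 17.0 CPM in all 6 male ones.

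Ramp3 was 2.45-fold higher in female than in male Gli1+ cells at E14.5 and 2.33-fold higher at E16.5, and within each sex the 2 ages overlapped. Ramp3 (chromosome 11, 6658521 to 6677475, mm10) had levels of 41.6, 34.7 and 35.1 CPM in the E14.5 female libraries and of 17.0, 13.7 and 15 CPM in the male ones. The E16.5 females had 34.2, 37.0 and 31.1 CPM and the E16.5 males 16.2, 16.1 and 11.7 CPM. Every female library lay above every male library.

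In the E14.5 contrast that had singled the gene out, female libraries averaged 37.2 ± 3.88 CPM of Ramp3 and male libraries 15.2 ± 1.69 CPM, which is 1.29 on the log2 scale (SE 0.126). The E16.5 libraries are not in that contrast, but the members were chosen with earlier results of these data known. The E16.5 test also shares its fit with the E14.5 libraries, so its independence of the choice is not shown. At E16.5 the averages were 34.1 ± 2.94 CPM in females and 14.7 ± 2.57 CPM in males, a log2 difference of 1.22 (SE 0.124, 2.33-fold). The adjusted p was 2.37e-06 by edgeR's quasi-likelihood test over all 17858 genes tested. Between E14.5 and E16.5 the log2 change of Ramp3 was -0.13 (SE 0.121) in females and -0.05 (SE 0.126) in males, and the sex difference at E16.5 minus that at E14.5 was -0.07 (SE 0.175). The order of the fetal group means was E14.5 females, E16.5 females, E14.5 males and E16.5 males; the 2 female groups overlapped each other, as did the 2 male groups.

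At E16.5, 3 of the 6 members differed between the sexes at an adjusted p under 0.05, Ramp3 higher and Ramp1 and Calcrl lower in females; 27.3% of all tested genes were called in this contrast, 13.2% higher and 14.1% lower in females. Ramp3 is the member on which the set was built, and Ramp1 and Calcrl are its partners. In the same libraries the 8 immune markers were higher in females for 5 genes and lower for 0, with sums of 31.1 to 79.7 CPM in females and 14.1 to 48.1 CPM in males. Their part in the differences of the members was not tested.

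Ramp1, the CGRP receptor partner, was low in all E14.5 libraries and rose in both sexes, far more in males. Its E14.5 levels were 0.968, 1.51 and 1.3 CPM for the females and 0.673, 0.962 and 1.17 CPM for the males, from 16 to 65 counts per library. The E16.5 females had 1.86, 2.58 and 2.55 CPM and the E16.5 males 7.26, 6.11 and 6.12 CPM. At E16.5 all males lay above all females, and at E14.5 the sexes overlapped.

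Of the 5 members tested with age in females, 3 changed, Ramp1 and Adm upwards and Calcrl downwards, against 39.6% of all tested genes (21% up, 18.6% down). Ramp1 (chromosome 1, 91179822 to 91225196) rose in females from 1.26 ± 0.274 to 2.33 ± 0.409 CPM, a log2 change of 0.89 (SE 0.222, edgeR adjusted p 0.00496). In males 3 of the same 5 members rose and none fell, against 23.3% of all genes called (13.1% up, 10.2% down). Ramp1 rose there from 0.936 ± 0.251 to 6.50 ± 0.661 CPM, a log2 change of 2.74 (SE 0.21, 6.67-fold, edgeR adjusted p 1.44e-07). The E16.5 sex difference in Ramp1 was a log2 value of -1.48 (SE 0.191, edgeR adjusted p 2.65e-05), so that females held a 2.78-fold lower level. At E14.5 it was 0.37 (SE 0.241).

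Calcrl, the receptor subunit shared by CGRP and adrenomedullin, moved in opposite directions in the 2 sexes. Its E14.5 levels were 32.6, 26.7 and 29.1 CPM for the females and 28.3, 22.6 and 25.4 CPM for the males, groups that overlapped. The E16.5 females had 18.9, 18.4 and 16.7 CPM and the E16.5 males 39.7, 52.9 and 59.6 CPM. All E16.5 females lay below every E14.5 library, and all E16.5 males lay above every other fetal library.

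In females Calcrl (chromosome 2, 84330626 to 84425411) fell from 29.5 ± 2.98 to 18 ± 1.12 CPM, a log2 change of -0.71 (SE 0.133, edgeR adjusted p 0.000764). In males it rose from 25.4 ± 2.85 to 50.8 ± 10.1 CPM, a log2 change of 1.01 (SE 0.129, edgeR adjusted p 4.6e-05). The E16.5 sex difference was -1.5 on the log2 scale (SE 0.131, 2.82-fold lower in females, edgeR adjusted p 8.25e-07). At E14.5 it was 0.22 (SE 0.131). These are levels in bulk RNA of sorted cells, in which fewer cells of a type and less RNA per cell cannot be told apart.

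Of the 5 members tested for a change of the sex difference from E14.5 to E16.5, Ramp1 and Calcrl passed, 2 of 5 and both negative, against 10% of all genes (4.66% positive, 5.36% negative). The change was -1.84 on the log2 scale for Ramp1 (SE 0.308, edgeR adjusted p 0.000941) and -1.72 for Calcrl (SE 0.185, edgeR adjusted p 3.42e-05), both towards males. It was -0.07 for Ramp2 (SE 0.127, adjusted p 0.789), -0.28 for Calcr (SE 0.501, adjusted p 0.798) and 0.70 for Adm (SE 0.417, adjusted p 0.345), by the same test.

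Markers of other cell types also differed between the sexes at E16.5, where 27.3% of all tested genes were called. Of 10 smooth muscle and pericyte markers, 5 were lower and 2 higher in females, with sums of 1390 to 1450 CPM in females and 2390 to 3600 CPM in males and no marker at 0. Myh11, smooth muscle myosin, measured 15.5 ± 1.75 CPM in E16.5 females and 314 ± 88.7 CPM in E16.5 males, and Acta2, smooth muscle actin, 275 ± 54.9 and 1807 ± 512 CPM. The 2 higher in females were Pdgfrb, at 494 against 319 CPM, and Notch3, at 309 against 254 CPM (edgeR adjusted p 2.05e-06 and 0.00621). Des, Rgs5 and Mcam were not called. Of the 14 endothelial markers 12 were tested, with 2 higher and 2 lower in females. Their sums were 74.8 to 87.8 CPM in females and 88.4 to 98 CPM in males. The median log2 difference of the 12 tested was the other way, 0.407 towards females, against 0.01 for all tested genes. Kdr, a large part of the sums, was lower in females, at 30.1 against 47.8 CPM (edgeR adjusted p 0.000397). Cdh5, the cadherin of vessel endothelium, averaged 2.45 ± 0.211 CPM in the female and 7.08 ± 1.3 CPM in the male libraries, whereas Emcn, another endothelial surface gene, was higher in females, at 37.1 ± 6.06 against 27.8 ± 3.6 CPM (edgeR adjusted p 0.0101). Pecam1 measured 0.904 ± 0.390 and 0.698 ± 0.0508 CPM (edgeR adjusted p 0.535). Of 5 lymphatic markers 3 were lower in females, with sums of 12.8 to 14 CPM in females against 20.7 to 23.4 CPM in males, and Ccl21a was at 0 in all libraries. The gonad-supporting markers summed to 47.6 to 52.8 CPM in females and 68.5 to 73.1 CPM in males, with 4 of 8 tested lower and 1 higher in females. The germ cell markers summed to 0.783 to 1.3 against 1.92 to 2.52 CPM, with 2 of 3 lower and Dppa3 at 0, and the epithelial markers to 24.8 to 33.2 against 34.5 to 41.2 CPM, with 1 of 10 lower. Among the mesenchyme markers 3 were higher and 5 lower in females. Gli1, whose Cre line labelled the sorted cells, averaged 50.7 ± 2.88 CPM in the female and 208 ± 13.3 CPM in the male libraries (edgeR adjusted p 3.53e-11), and Ptch1, the hedgehog receptor and another target of the pathway, 76.6 ± 10.7 and 671 ± 219 CPM (adjusted p 4.5e-06). With age, 4 of the 12 tested endothelial markers fell and 0 rose in females, and 2 rose and 3 fell in males. Of all tested genes, 39.6% were called with age in females and 23.3% in males. The median log2 change of these markers was -0.258 in females and -0.326 in males. Cdh5 fell in females by 0.69 on the log2 scale (edgeR adjusted p 0.0108). In males it rose by 0.84 (adjusted p 0.00276), against the median of its list. Of the smooth muscle markers 4 rose and 3 fell in females, and 7 rose and 2 fell in males. The part of these markers in the Ramp1 and Calcrl differences was not tested.

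Ramp2, the other adrenomedullin receptor partner, was the steadiest of the abundant members. It (chromosome 11, 101246028 to 101248250) had E14.5 levels of 48.4, 53.5 and 52.6 CPM for the females and 44.5, 58.0 and 50.7 CPM for the males. The E16.5 females had 49.0, 57.4 and 52.6 CPM and the E16.5 males 58.2, 55.7 and 52.6 CPM. The 4 groups overlapped. The log2 difference between the sexes at E16.5 was -0.07 (SE 0.0896, edgeR adjusted p 0.649), with an interval of 1.96 SE either way from -0.241 to 0.11. With age it was 0.04 (SE 0.0904, adjusted p 0.741) in females and 0.12 (SE 0.0898, adjusted p 0.385) in males, with intervals of -0.135 to 0.219 and -0.0591 to 0.293.

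Adm, the adrenomedullin peptide gene, rose with age in both sexes. It (chromosome 7, 110627661 to 110629820) had E14.5 levels of 0.968, 0.756 and 0.941 CPM for the females and 1.05, 1.74 and 1.15 CPM for the males. The E16.5 females had 7.05, 6.08 and 3.56 CPM and the E16.5 males 6.75, 3.90 and 4.67 CPM. Every E16.5 library lay above every E14.5 library, and replicate 1 was the highest at E16.5 in both sexes.

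The log2 rise of Adm was 2.64 in females (SE 0.305, 6.22-fold, edgeR adjusted p 9.08e-06) and 1.94 in males (SE 0.277, 3.83-fold, edgeR adjusted p 0.000105). In the E14.5 contrast all females lay below all males, with a log2 difference of -0.57 (SE 0.337). The sex difference of Adm at E16.5 was 0.13 (SE 0.246, adjusted p 0.762), with an interval from -0.356 to 0.607. An antisense gene of the table, RP23-25I3.4, spans Adm and held 0 to 4 counts per fetal library, against 19 to 289 for Adm. The fetal kit did not keep strand, so reads of the 2 genes cannot be told apart there.

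Calcr was near the limit of detection. It (chromosome 6, 3685680 to 3764714) held 4 to 18 counts per fetal library, or 0.160 to 0.443 CPM, where 3 counts correspond to 0.0485 to 0.126 CPM. E16.5 females averaged 0.355 ± 0.0782 CPM and E16.5 males 0.226 ± 0.0651 CPM, a log2 difference of 0.64 (SE 0.336, edgeR adjusted p 0.181), and at E14.5 0.377 ± 0.0567 against 0.194 ± 0.0353 CPM. At both ages all female libraries lay above all male ones, at E16.5 by as little as 0.294 against 0.290 CPM. With age the log2 change was -0.08 in females (SE 0.339, adjusted p 0.877) and 0.20 in males (SE 0.37, adjusted p 0.74). The microRNA genes Mir489 and Mir653, which lie inside Calcr, had 0 counts in all 18 libraries.

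**Figure D2:**
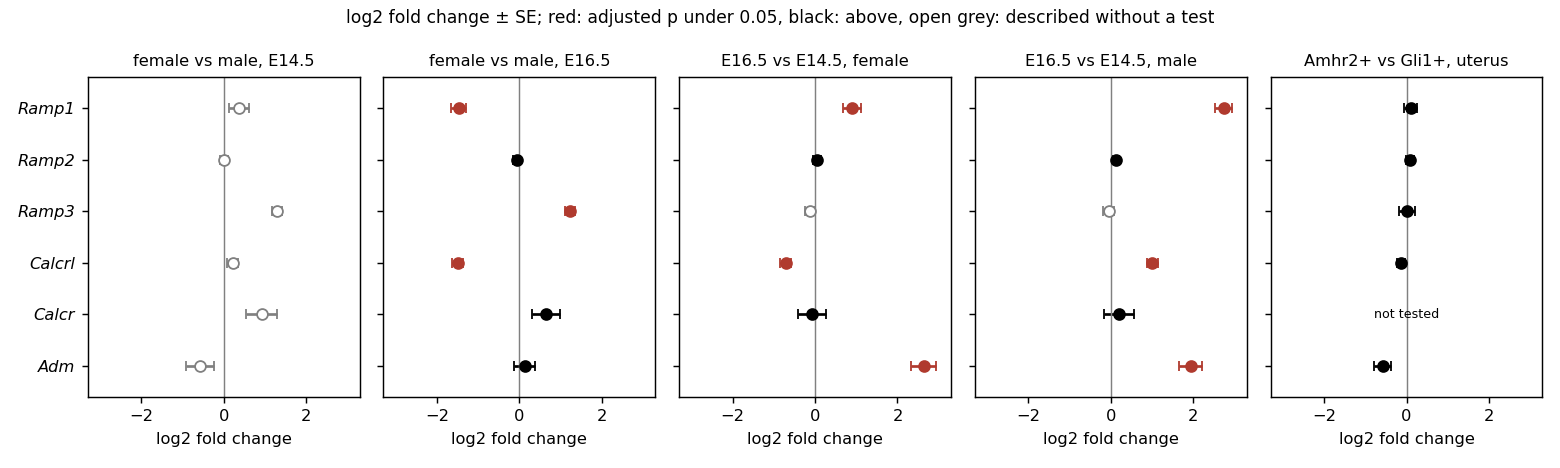
Log2 fold change (x axis, first group minus second) with its SE for each gene in 5 contrasts; red points passed an adjusted p of 0.05 in edgeR's quasi-likelihood test, black points did not, and open grey points are described without a test. Ramp1 and Calcrl stand at -1.48 and -1.5 at E16.5, opposite to Ramp3 at 1.22, and Adm stands at 2.64 and 1.94 in the age contrasts.

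The RAMP partner decides which peptide Calcrl binds, so the share of each Ramp transcript was taken from the level per length in every library. Ramp3 held 49.1% to 56.3% of the summed RAMP level in E14.5 females and 26.2% to 36.5% in E14.5 males. At E16.5 its share was 46.5% to 50.8% in females and 23.8% to 29.0% in males. Ramp2 made up most of the remainder in every fetal group.

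At E16.5 the mean share of Ramp3 was 48.6% ± 2.15 (SD, n = 3) in females and 26.9% ± 2.77 in males, a difference of 21.7 points. That of Ramp2 was 49.9% ± 1.91 against 67.6% ± 2.55, and that of Ramp1 1.52% ± 0.241 against 5.48% ± 0.399. None of the 3 shares overlapped between the sexes; the 2-sided exact permutation p, with the libraries taken as unpaired, was 0.1 for each, the smallest that 3 against 3 libraries allow, and 0.2 after Benjamini-Hochberg adjustment over 6 comparisons. The shares sum to 100% in a library, so they are not independent of each other. The Ramp2 level itself was not called between the sexes at E16.5, at 53.0 CPM in females against 55.5 CPM in males (edgeR adjusted p 0.649). At E14.5 the Ramp1 share was 0.807% ± 0.193 in females and 0.864% ± 0.219 in males.

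The summed RAMP level per length exceeded that of Calcrl in every group. The ratio was 8.65 ± 0.671 in E14.5 females and 6.95 ± 1.18 in E14.5 males. The E16.5 ratio was 13.8 ± 1.04 in females and 3.93 ± 1.13 in males, with ranges of 12.6 to 14.6 and 2.92 to 5.14 that did not overlap. RAMP transcripts were in largest excess over Calcrl in E16.5 females and in smallest excess in E16.5 males among the fetal groups.

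**Figure D3:**
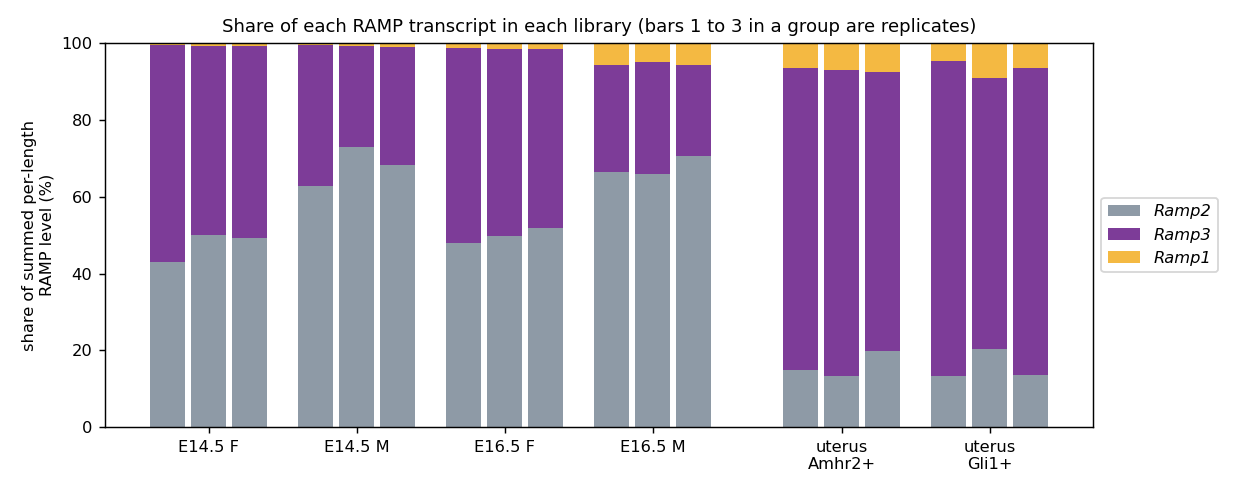
Share of Ramp1, Ramp2 and Ramp3 in the summed RAMP level per exon length (y axis, percent), stacked to 100% in 1 bar per library, 3 bars per group. Ramp3 takes 46.5% to 56.3% in fetal female and 23.8% to 36.5% in fetal male libraries, and 70.3% to 81.8% in uterine ones.

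In the uterus the mean levels of the receptor genes lay close together in the 2 sorted populations, and no member passed the test. The 5 members tested gave 0 calls by edgeR's quasi-likelihood test and 0 by DESeq2, where 23.9% of 16195 tested genes were called by edgeR; 1 of the 5, Adm, had an unadjusted p under 0.05. Ramp3 was the most abundant member, at 119, 127 and 100.1 CPM in Amhr2+ cells and 126, 82.3 and 136 CPM in Gli1+ cells. The groups overlapped, and Gli1+ replicate 2 was the lowest of the 6 libraries. The log2 difference of Ramp3, Amhr2+ minus Gli1+, was 0.01 (SE 0.186, adjusted p 0.968), with an interval from -0.351 to 0.377.

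Calcrl measured 35.6, 32.3 and 42.4 CPM in Amhr2+ cells and 40.1, 40.6 and 39.8 CPM in Gli1+ cells, a log2 difference of -0.13 (SE 0.0987, edgeR adjusted p 0.378) with an interval from -0.322 to 0.0652. Ramp1 measured 21.5, 24.7 and 23.3 CPM against 16.1, 23.8 and 24.7 CPM, a log2 difference of 0.10 (SE 0.155, adjusted p 0.662). Ramp2 measured 34.4, 32.7 and 41.4 CPM against 31.3, 36.4 and 34.8 CPM, a log2 difference of 0.08 (SE 0.103, adjusted p 0.608). All 3 overlapped between the populations. The intervals were -0.199 to 0.407 for Ramp1 and -0.121 to 0.282 for Ramp2.

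Adm measured 2.69, 3.13 and 2.13 CPM in Amhr2+ cells and 4.67, 3.87 and 3.35 CPM in Gli1+ cells. All Amhr2+ libraries lay below all Gli1+ libraries, with a log2 difference of -0.57 (SE 0.205, edgeR adjusted p 0.0757). Calcr had 0 counts in the 3 Amhr2+ libraries, which allows up to 0.0777 to 0.102 CPM, and 2, 3 and 0 counts in the Gli1+ libraries, and it was not tested. Ramp3 took 76.9% ± 3.78 of the RAMP level in Amhr2+ and 77.3% ± 6.16 in Gli1+ cells (exact permutation p 0.8, adjusted 0.9 over 6 comparisons). The mesenchyme markers summed to 27200 to 29200 CPM in Amhr2+ and to 57300 to 64700 CPM in Gli1+ cells, with 8 of 10 lower in Amhr2+ cells, and the epithelial markers to 73.5 to 76.1 against 33.1 to 45.6 CPM, with 4 of 9 higher. Of all tested uterine genes, 23.9% were called. The part of these marker differences in the member values was not tested. The uterine and fetal libraries were made with different kits and were not compared by a test.

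The related ligands were low. Of Adm2, Calca, Calcb and Iapp, 2 passed the low-count filter in the fetal table and 1 in the uterine one. Calca, which encodes calcitonin and, by alternative splicing, alpha-CGRP, rose with age from 0.319 ± 0.103 to 2.32 ± 0.300 CPM in females (log2 change 2.87, SE 0.427, edgeR adjusted p 1e-04) and from 0.276 ± 0.270 to 2.95 ± 0.0467 CPM in males (3.23, SE 0.392, adjusted p 2.13e-05). Calcb, which encodes beta-CGRP, rose from 0.354 ± 0.0756 to 1.74 ± 0.132 CPM in females (2.30, SE 0.254, adjusted p 4.43e-06) and from 0.101 ± 0.0220 to 1.41 ± 0.233 CPM in males (3.69, SE 0.294, adjusted p 2.17e-07). Counts were low at E14.5, from 0 to 23 per library for Calca and from 2 to 11 for Calcb. The Calcb sex difference changed with age by -1.39 (SE 0.424, adjusted p 0.0498). Neither passed the test between the sexes at E16.5 (adjusted p 0.453 for Calca and 0.281 for Calcb). In the uterus Calca was lower in Amhr2+ cells, 0.114 ± 0.0433 against 0.738 ± 0.179 CPM (log2 -2.65, SE 0.408, adjusted p 0.00265), from 3 to 6 and 18 to 29 counts. Adm2, the gene of adrenomedullin 2, held 0 to 4 counts per fetal and 4 to 21 per uterine library. Iapp, the amylin gene, had 0 counts in every library. Of the 8 neural and glial markers 5 were tested, with 0 calls by edgeR in either age contrast. Of all tested genes, 39.6% were called with age in females and 23.3% in males.

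Of 7 genes that process, clear or bind these peptides, 6 differed between the sexes at E16.5, 2 higher and 4 lower in females, with a median log2 difference of -0.25 against 0.01 for all tested genes. Ackr3, a receptor that scavenges adrenomedullin and the chemokine Cxcl12, was lower in females, 9.66 ± 1.3 against 26.6 ± 1.08 CPM (log2 -1.46, SE 0.125, edgeR adjusted p 3.35e-07). Pam, the enzyme that amidates the peptides, was lower at 160 ± 7.72 against 225 ± 23.6 CPM (log2 -0.49, adjusted p 0.000625). With age 2 rose and 3 fell in females, and 4 rose and 1 fell in males. Of all tested genes, 27.3% were called between the sexes at E16.5, 39.6% with age in females and 23.3% with age in males. Mme, neprilysin, which degrades adrenomedullin and CGRP, rose in both sexes, by 0.83 in females (adjusted p 2.51e-07) and 0.47 in males (adjusted p 0.000128). In the uterus 1 was higher and 2 lower in Amhr2+ cells, against 23.9% of all tested genes called. Ackr3 was higher there, 55.3 ± 12.2 against 30.5 ± 0.597 CPM (log2 0.86, edgeR adjusted p 0.00405), and Mme lower, 265 ± 12.7 against 410.2 ± 7.84 CPM (log2 -0.63, adjusted p 0.000234).

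Of 32 genes of the cyclic AMP pathway, to which these receptors couple, 2 were higher and 10 lower in E16.5 females, with a median log2 difference of -0.09. Adcy7, an adenylyl cyclase, differed most within this list, averaging 12.6 CPM in the female and 142 CPM in the male libraries (log2 -3.49, SE 0.126, edgeR adjusted p 1.06e-10). It fell with age in females by 1.83 on the log2 scale (adjusted p 3.88e-08) and rose in males by 0.49 (adjusted p 0.00522). Pde4b, a cyclic AMP phosphodiesterase, was lower in E16.5 females, 1.88 against 4.67 CPM (log2 -1.32, adjusted p 9.45e-05). The 2 higher in E16.5 females were Adcy4, at 14.6 against 6.39 CPM (log2 1.19, adjusted p 6.35e-07), and Pde4a, at 8.05 against 6.34 CPM (log2 0.35, adjusted p 0.0407). Across the list, 5 rose and 11 fell with age in females, 7 rose and 2 fell in males, and 4 were higher and 3 lower in uterine Amhr2+ cells. Of all tested genes, 27.3% were called at E16.5, 39.6% with age in females, 23.3% with age in males and 23.9% in the uterus. The list's 9 of 32 calls in males and 7 of 31 in the uterus were near these shares. The list median was within 0.01 of 0 in males with age and in the uterus.

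Other receptors that can pair with RAMP proteins were also followed. Of 11 listed, 8 were tested in the fetal table, with 2 higher and 2 lower in E16.5 females, against 27.3% of all tested genes called. Adcyap1r1, the receptor of the peptide PACAP, was the most abundant of the 4, at 81.4 against 49.4 CPM (log2 0.72, edgeR adjusted p 5.46e-05). Vipr2, a receptor of vasoactive intestinal peptide, rose with age by 0.55 in females (adjusted p 0.00101) and by 0.73 in males (adjusted p 0.000112). In the uterus 0 of 6 tested were higher and 3 lower in Amhr2+ cells, among them Adcyap1r1, at 1.94 against 10.3 CPM, and Vipr2, at 5.03 against 15.5 CPM (log2 -2.43 and -1.62, adjusted p 0.000408 and 0.000432). Of all tested uterine genes, 23.9% were called.

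Adm is a known target of hypoxia-inducible factors, and 16 hypoxia response genes were followed beside it. With age 9 rose and 1 fell in females, with a median log2 change of 0.46, and 8 rose and 1 fell in males, with a median of 0.29; all tested genes had medians of 0.00 and -0.01. Ndrg1, a stress-induced gene, rose by 1.05 in females and 1.23 in males (edgeR adjusted p 1.84e-05 and 4.2e-06), and Egln3, a hypoxia-induced prolyl hydroxylase, by 1.5 and 1.31 (adjusted p 5.01e-05 and 0.000116). The gene that fell was Vegfa, a vessel growth factor, in both sexes, by 0.93 in females (adjusted p 7.4e-07) and by 0.76 in males (adjusted p 9.08e-06). At E16.5, 3 were higher and 5 lower in females, with a median log2 difference of -0.289 against 0.01 for all tested genes. In the uterus 2 were higher and 0 lower in Amhr2+ cells, with a median of 0.161. Of all tested genes, 39.6% were called with age in females, 23.3% with age in males, 27.3% at E16.5 and 23.9% in the uterus. A link between these genes and the rise of Adm was not tested.

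For each member, the genes with the most similar pattern were sought among 14080 others with a mean of at least 1 CPM, by Pearson's r of log2 CPM over the 12 fetal libraries, which share age and sex groups and depth. These are descriptions with no test. For Ramp3 the closest were Eif2s3x on the X chromosome (r = 0.967), Pcdhga9 (0.963), Car10 (0.962), Eif3f (0.961) and Prkcb (0.956). Car10 had group means of 4.57 and 4.15 CPM in E14.5 and E16.5 females and 0.572 and 0.495 CPM in males. Over the 6 uterine libraries the r of these 5 genes with Ramp3 ranged from -0.6 to 0.0809.

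For Calcrl the closest were Pde5a (0.963), a cyclic GMP phosphodiesterase of smooth muscle, Hectd2 (0.963) and Lrrc8c (0.954), and for Ramp1 Lmcd1 (0.964), Vwa1 (0.962) and Map6 (0.961). Lmcd1 went from 4.45 to 9.58 CPM in females and from 4.70 to 34.6 CPM in males. In the uterus the r of these genes, in the order named, was 0.232, -0.602 and 0.641 for Calcrl and -0.264, -0.27 and -0.237 for Ramp1. For Adm the closest were Mif4gd (0.989), Prokr1 (0.977) and Slc6a9 (0.976), whose r in the uterus was 0.881, 0.651 and 0.74. For Ramp2 they were Usf2 (0.941), Pet100 (0.902) and Soga3 (0.896), and for Calcr Nrgn (0.923), Agtr1a (0.892) and Aldh1b1 (0.887). The uterine r with Ramp2 was 0.00933 for Usf2 and -0.128 for Pet100. No uterine r was available for Soga3, nor for Calcr, which was not tested there. Among the members, Ramp3 and Calcr had r = 0.804, Ramp1 and Adm 0.755, and Ramp3 and Calcrl -0.545. Pcdhga9 overlaps 28 other genes of its cluster in the table and is uncertain for that reason. Eif2s3x has a Y-linked relative.

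The unified peak list deposited for the 8 ATAC-seq samples had 71040 entries, 233 bp wide at the median, and no value per sample, so groups could not be compared. All 6 members had a peak that reached to within 1 kb of the start, as did 79.1% of 17818 tested fetal genes. A peak spanned the start itself for Ramp2, Ramp3, Calcrl and Adm, and for 31.7% of 41263 genes, tested or not. That background is not matched to the members, which were all tested in the fetal table. Within 1 kb the share was 42% over the 41263 genes, against 79.1% over the tested ones. The share with a peak spanning the start was not taken among tested genes alone. The Ramp2 peak was 788 bp wide and that of Calcrl 357 bp, against 284 bp for Ramp3 and 114 bp for Adm. For Ramp1 the nearest peaks were 98 bp and 105 bp wide, centred 586 bp upstream and 206 bp downstream of the start, and the single Calcr peak lay in an exon, its centre 1037 bp downstream and its near edge within 1 kb.

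Ramp1 held 6 peaks within the gene, 4 of them narrower than the median, and its widest, 600 bp, lay in an intron 1818 bp past the start. Calcrl, a far longer gene, had 1 peak inside, at its start. Ramp3 had none inside beyond the start, and 2 downstream of its end, centred 19196 and 22118 bp from the start. Adm had 1 in an exon, 1638 bp from the start, and 1 downstream at 2797 bp.

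**Figure D4:**
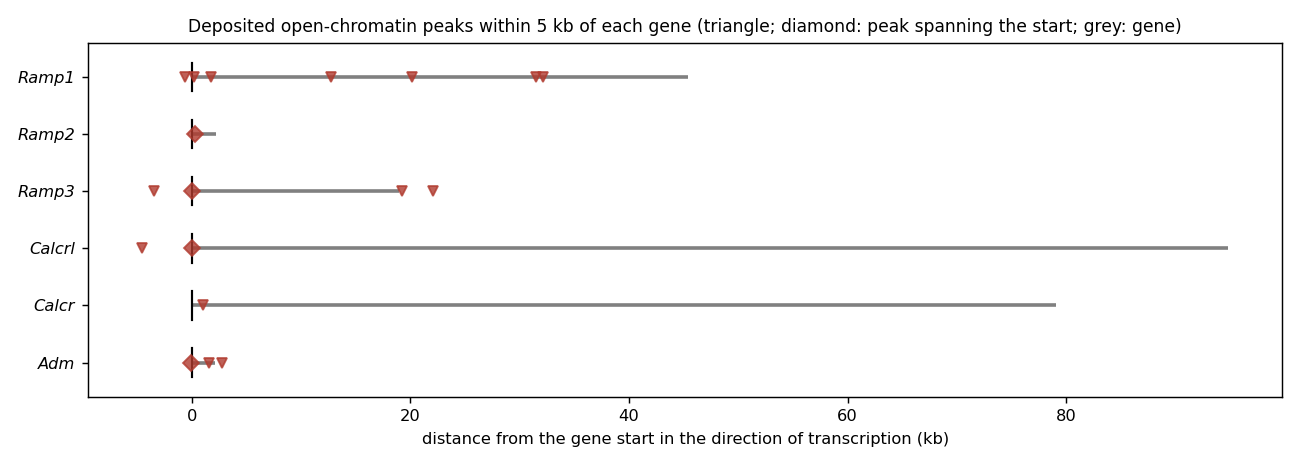
Centres of deposited open-chromatin peaks (red) by distance from the gene start in kb along each gene (grey line, black tick at the start), within 5 kb of the gene. Diamonds mark the peaks that span the start of Ramp2, Ramp3, Calcrl and Adm; Ramp1 carries 6 peaks in the gene and Calcr 1.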

How the data were processed

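The deposited RNA-seq tables hold whole-number read counts of the authors, 1 row for each gene and 1 column for each library. STAR 2.5 and featureCounts of Subread 1.5.0-p1 are named in the submitters' processing notes without a role, and MACS2 2.1.1 and Bowtie 1.2 likewise; the annotation version and the use of strand in counting are not given in the sources used here. Fetal libraries used a non-stranded and uterine libraries a stranded kit, per the labels' protocols, and the tables were fitted separately.

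Counts were tested with edgeR 4.0.16 in R 4.3.3 (filterByExpr, TMM, robust quasi-likelihood fit), checked on simulated data. Fetal contrasts came from 1 fit of 12 libraries. Adjusted p-values are Benjamini-Hochberg values over all genes tested, with a threshold of 0.05; a standard error is the log2 fold change divided by the root of F. Exon lengths came from GENCODE vM21 transcripts inside the coordinates of the table. DESeq2 1.42.0 was an alternative. For each list and contrast, up to 4 called genes with the largest changes could be named. Called genes of the other direction were named as well in the cyclic AMP and hypoxia lists. For pattern likeness, the 5 genes (Ramp3) or 3 genes (others) of highest r were named, from log2 CPM with a prior count of 2. The members and lists were chosen with earlier results of these data known. Cell type markers named beside a result were chosen after their values were seen. Among genes named, Pam, Cdh5, Ndrg1, Vipr2 and most of those alike in pattern overlap other genes, so their counts are uncertain. Values of 1 gene of the peptide-handling list are not reported here.

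Same-numbered libraries were checked as pairs by correlating deviations from group means. Between the sexes at E16.5 all 3 pairs exceeded 0.1 (0.28, 0.11 and 0.4), so the numbers may mark pairs there, a hint from the data and not from the labels. The unmatched E16.5 female 2 and male 1 also reached 0.11. At E14.5 the same-numbered pairs gave 0.073, 0.05 and 0.051, under that limit, and all unmatched pairs were negative, so pairing there is not settled. The E16.5 tests printed are those without the pairing; a fit with the replicate block was an alternative.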

Additional observations from a re-analysis of the deposited data

Results flagged for a closer look

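The sex difference of 2 members was not the same at the 2 ages, by edgeR's test of that change itself. For Ramp1 the E16.5 difference minus the E14.5 difference was -1.84 on the log2 scale, and for Calcrl it was -1.72, both towards higher levels in males. With 3 libraries in each group, single libraries were not screened as outliers.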

How the results depend on the processing

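Each member called in the fetal table kept its direction and its side of the threshold in all 18 alternatives run for the sex contrast and for each age contrast, and in all 17 for the change of the sex difference. The alternatives were library-size and RLE scaling, DESeq2, no low-count filter, separate fits, a replicate block and each library left out. Leaving out a library of neither group compared can hardly move a log2 difference, so those alternatives are a weak check. The E16.5 sex difference of Ramp1, for example, was -1.476 or -1.477 whichever E14.5 library was left out. With the replicate block, the uterine count of called members went from 0 to 1; the added call was Adm, with a log2 difference of -0.58 and an edgeR adjusted p of 0.0411 (0.0411 to 0.22 over its 11 alternatives). Same-numbered uterine libraries correlated at 0.0018, 0.22 and 0.24, so these numbers were not taken as pairs. The block changed no other member call; between the sexes at E16.5 it gave 5901 genes called in place of 4883 and the same 3 members.

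Leaving out 1 library gave 3618 to 5745 genes called between the sexes at E16.5 (4883 with all), 5249 to 7729 with age in females (7068), 3364 to 4238 with age in males (4168), 1335 to 2687 for the change of the sex difference (1790) and 1949 to 3521 in the uterus (3866). The highest of these for the change of the sex difference, 2687, came without E16.5 male replicate 1, and the uterine number dropped to 1949 when Amhr2+ replicate 1 was left out and to 2521 when Gli1+ replicate 1 was. Under plain library-size scaling the share of calls that were higher went from 53% to 44.4% with age in females, from 56.1% to 41.2% with age in males and from 42.5% to 63.5% in the uterus.

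With the longest transcript as length, the E16.5 share differences were -3.19 points for Ramp1, -14.5 for Ramp2 and 17.7 for Ramp3, against -3.96, -17.7 and 21.7. Without 1 library they ranged from -4.19 to -3.83, from -18.7 to -16.3 and from 20.1 to 22.8, and in the uterus from -0.889 to 1.36, from -1.6 to 2.58 and from -3.93 to 1.82. With only peaks of at least median width, 3 members rather than 6 had one within 1 kb of the start. Among 41263 genes, tested or not, the share was 36.3% with these wide peaks and 42% with all peaks.

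The values that changed sign were all uncalled, and each did so when 1 library was left out. Adm between the sexes at E16.5 ranged from -0.0903 (without female replicate 1; -0.03 without male replicate 2) to 0.372, Ramp2 with age in females from -0.019 (without E16.5 replicate 2; -0.00074 without E14.5 replicate 1) to 0.0992 and Calcr with age in females from -0.27 to 0.0434 (without E16.5 replicate 1; 0.0328 without E14.5 replicate 2). The Ramp2 change of the sex difference ranged from -0.175 to 0.0134 (without E14.5 male replicate 1). In the uterus Ramp1 ranged from -0.0681 (without Gli1+ replicate 1) to 0.215, Ramp2 from -0.0244 (without Amhr2+ replicate 3) to 0.153 and Ramp3 from -0.179 (without Gli1+ replicate 2; -0.0555 and -0.00746 without Amhr2+ replicates 2 and 1) to 0.152. The cause was not tested. Low counts limit the precision of Calcr, Calcb, Adm2, Calca at E14.5 and in the uterus, and Ramp1 and Adm at E14.5.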
